A study of Mus musculus with 2 samples.

Results

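The genes described here encode the core of transforming growth factor beta (TGF-beta) signalling: the ligands Tgfb1, Tgfb2 and Tgfb3, the receptors Tgfbr1, Tgfbr2 and Tgfbr3, the signal transducers Smad2, Smad3 and Smad4, and the feedback inhibitor Pmepa1. They were picked by symbol, with earlier results of these data known, and all 10 were found among the 14694 genes of the table. The series concerns radiation-induced lung fibrosis. Its RNA came from 1 library labelled IR and 1 labelled NC, both with mouse lung fibroblasts as the named source, sequenced after depletion of ribosomal RNA. The labels spell out neither abbreviation and give no strain, age, dose, treatment or time. They describe the spinning and filtering of culture supernatants, so whether the RNA was from cells or from vesicles is not clear from them. With 1 library per group no difference has a replicate check, and every statement below compares these libraries, not the conditions.

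TGF-beta is secreted as a latent complex and, once freed in the matrix, is gripped by the type II receptor (Tgfbr2), which phosphorylates the type I receptor (Tgfbr1, also called ALK5). The type I receptor then phosphorylates SMAD2 and SMAD3, which join SMAD4 and enter the nucleus to control transcription. In fibroblasts this pathway is known for driving collagen and fibronectin production and the switch to contractile myofibroblasts.

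The libraries held 35219511 counted reads (IR) and 36084512 (NC). Of these, 13109 in IR and 14874 in NC fell on the 10 genes. Among markers of the labelled cell type, Vim, S100a4, Col1a2, Pdgfra and Pdgfrb were well covered (1579 to 76565 reads). Fewer reads fell on Col3a1 (565 in IR and 690 in NC) and Col1a1 (273 and 688). The fibroblast proteoglycan gene Dcn had 30 reads in IR and 7 in NC. Lum and Thy1, also on the list, had no row in the table used here. The 8 fibroblast markers in the table came to 3535 CPM (reads scaled to library size) for IR and 3288 for NC, and to 1341 and 1468 CPM once Vim was left out. Of the 7 with enough reads, 5 had a counting interval (defined below) under 0 and 2 above, with a median log2 ratio of -0.41. Of all genes compared, 63.6% had an interval that left out 0, 32.4% below and 31.2% above. The fibroblast markers with an interval above 0 were Vim (0.27) and S100a4 (0.74, 679 against 408 CPM), and Col1a1 was at least 2-fold lower. Of the other cell types, the level in IR and then in NC was 0.459 and 0.275 CPM for lymphocyte markers, 2.95 and 1.78 CPM for general epithelial markers, 4.70 and 4.36 CPM for endothelial markers and 7.62 and 8.48 CPM for alveolar epithelial markers. Smooth muscle markers, pericyte genes included, reached 27.1 and 22.3 CPM. The alveolar surfactant gene Sftpc had 0 and 2 reads. The table held 1 of 6 lymphocyte markers (Cd79a), 4 of 6 general epithelial, 5 of 6 endothelial and 4 of 7 alveolar epithelial markers. It held 3 of 6 macrophage, 2 of 4 mesothelial and all 6 smooth muscle and pericyte markers. Markers outside it have no value here, so a low sum does not show that a cell type was absent. Macrophage markers summed to 83.7 and 60.5 CPM, more than 99% of it from Cd68 in both libraries (99.4% and 99.2%), while the macrophage receptor gene Csf1r had 1 and 4 reads. Mesothelial markers, nearly all Msln, were at 97.8 CPM in the IR library and 197 in the other. The part of these differences in the results below was not tested, and in bulk RNA fewer cells of a type and less RNA per cell cannot be told apart.

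None of the 10 genes differed 2-fold, but 9 of them differed by more than counting error, in both directions and within each class of molecule. Tgfb1, Tgfb2, Tgfbr1 and Smad2 were higher in the IR library. Tgfb3, Tgfbr2, Tgfbr3, Smad3 and Pmepa1 were lower. Ratios are log2 of IR over NC after scaling of the libraries, each with an exact 95% interval for counting error alone. At least 2-fold means an absolute log2 ratio of 1 or more with an interval that leaves out 0, which held for 3.42% of the 10921 genes with 50 or more reads over both libraries (1.60% higher and 1.82% lower in IR). An interval that leaves out 0, whatever the size, was the rule for 63.6% of those genes, 31.2% above and 32.4% below, so that criterion alone singles out little. Of the 10 TGF-beta genes, 4 had their interval above 0 and 5 below. Their median log2 ratio was -0.21 and their median absolute log2 ratio 0.42, against -0.0069 and 0.23 for all genes compared.

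**Figure D1:**
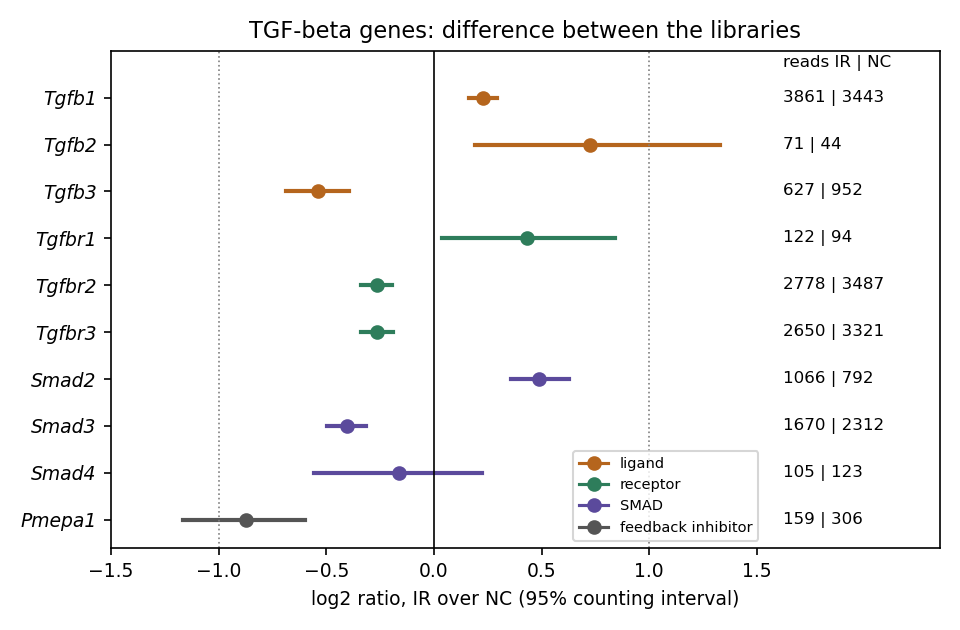
Log2 ratio of IR over NC for each TGF-beta gene, with points for the ratio, bars for the 95% counting interval, colours for the class of molecule, and raw reads at the right. Dotted lines mark 2-fold. Every class holds genes on both sides of 0 except the single feedback inhibitor, and the interval of Smad4 alone includes 0.

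**Figure D2:**
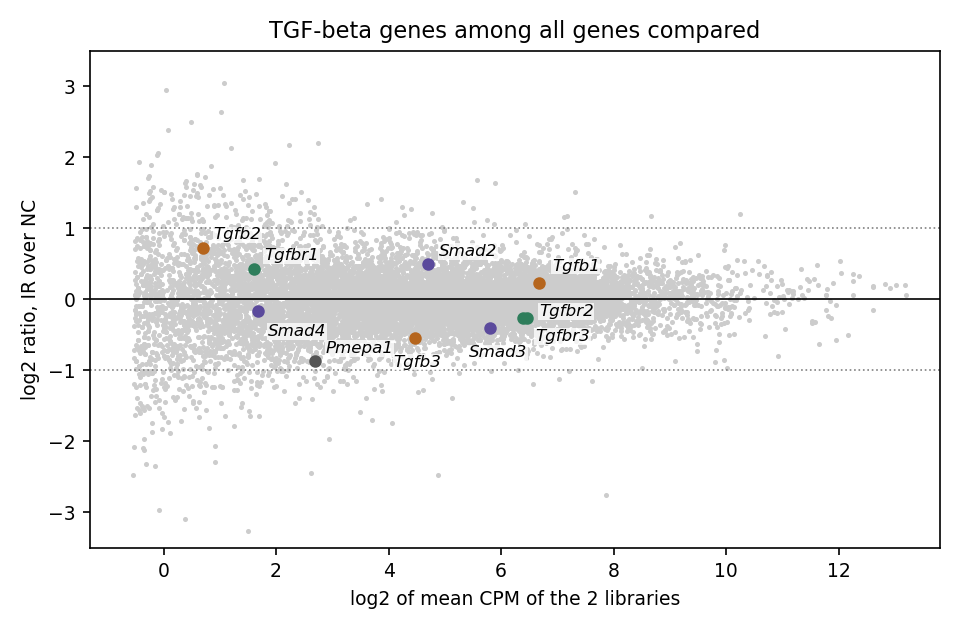
Log2 ratio of IR over NC against the log2 of mean CPM for the 10921 genes compared (grey) and the TGF-beta genes (coloured by class as in the plot of their ratios). All 10 lie between the dotted 2-fold lines, with Pmepa1 lowest and Tgfb2 highest among them.

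Among the ligands, Tgfb1, the isoform best known as a driver of fibrosis, had 3861 reads in IR and 3443 in NC. It was slightly higher in IR (log2 ratio 0.23, interval 0.16 to 0.29), and 50.8% of all genes compared lay at least as far from 0. Tgfb2, an isoform that binds the type II receptor poorly without a co-receptor, had 71 and 44 reads (log2 ratio 0.73, interval 0.19 to 1.33). Its ratio lay above that of 96.0% of genes, but with so few reads the interval runs from a small to a more than 2-fold difference. Tgfb3, the isoform needed for closure of the palate in mice, went the other way with 627 and 952 reads (log2 ratio -0.54, interval -0.69 to -0.39). For Tgfb3, 12.4% of the exon sequence overlaps the genes Gm37804 and Gm48008 on the opposite strand. The 8.79% of its 50-base words that occur in other genes were found in these same genes only. The sources used here do not say whether counting took account of strand, so the Tgfb3 value is uncertain.

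The ligands lie at chr7:25687002-25705077 (Tgfb1, plus strand), chr1:186622792-186705989 (Tgfb2, minus strand) and chr12:86056745-86079041 (Tgfb3, minus strand), on GRCm38. Tgfb1 and Tgfb2 were the most and the least abundant of the 10 genes, and the 250 bases before their RefSeq start sites (GRCm38.p6, on each gene's own strand) are shown to set these start regions side by side. Capitals mark motif matches, searched on both strands. The GC box, bound by factors of the SP family, was searched with the letters GGGCGG. The box at which the general transcription machinery is placed was searched as TATAAA. Sites of the factor AP-1, made of JUN and FOS proteins, were searched with the letters TGANTCA. The cAMP response element was searched as TGACGTCA, and the box that SMAD3 and SMAD4 bind as CAGAC, called SMAD box below.
Tgfb1: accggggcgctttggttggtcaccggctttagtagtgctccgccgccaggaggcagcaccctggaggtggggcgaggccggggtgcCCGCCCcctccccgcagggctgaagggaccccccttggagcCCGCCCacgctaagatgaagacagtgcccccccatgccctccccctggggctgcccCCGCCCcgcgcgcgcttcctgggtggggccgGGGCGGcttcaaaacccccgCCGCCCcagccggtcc
Tgfb2: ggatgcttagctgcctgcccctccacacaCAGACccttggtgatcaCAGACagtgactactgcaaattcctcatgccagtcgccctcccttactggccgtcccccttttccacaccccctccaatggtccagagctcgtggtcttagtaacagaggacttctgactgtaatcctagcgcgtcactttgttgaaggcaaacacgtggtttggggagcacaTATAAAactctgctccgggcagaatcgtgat
The Tgfb1 stretch (chr7:25686752-25687001) was 75.2% G and C and held 5 GC boxes and no other match. The Tgfb2 stretch (chr1:186705990-186706239) was 53.6% G and C and held a TATA box 26 to 31 bases before the start and 2 SMAD boxes, with no GC box. Of all 32851 promoter entries in the same window, 32.7% held a GC box, 12.4% a TATA box and 42.2% a SMAD box, while AP-1 sites (6.75%) and cAMP response elements (1.55%) were found in neither stretch. No match overlapped another, and a match describes letters only.

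Levels between genes were compared as transcripts-per-million values (TPM, reads per merged exon length, scaled to the same total in each library). Tgfb1 stood at 56.4 TPM in IR (95% Poisson interval 54.6 to 58.2) and 50.5 TPM in NC (48.8 to 52.2). Tgfb3 stood at 13.6 TPM (12.6 to 14.8) and 20.8 TPM (19.5 to 22.2), and Tgfb2 at 0.903 TPM (0.705 to 1.14) and 0.562 TPM (0.408 to 0.754). Tgfb1 was therefore the main ligand transcript of both libraries, with 79.5% of the summed ligand TPM in IR and 70.3% in NC, followed by Tgfb3 with 19.2% and 29.0%. With the mean length of coding transcripts the share of Tgfb3 was 9.37% and 15.0%. The level of Tgfb1 was 4.13 times that of Tgfb3 in IR and 2.43 times in NC. That change in their balance, 0.77 on the log2 scale (interval 0.61 to 0.93), does not depend on library scaling or on gene length. Like the Tgfb3 shares, it does rest on the Tgfb3 reads, which are uncertain because of the exon overlap given above. With the mean length of coding transcripts the multiples themselves were 9.58 and 5.63.

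**Figure D3:**
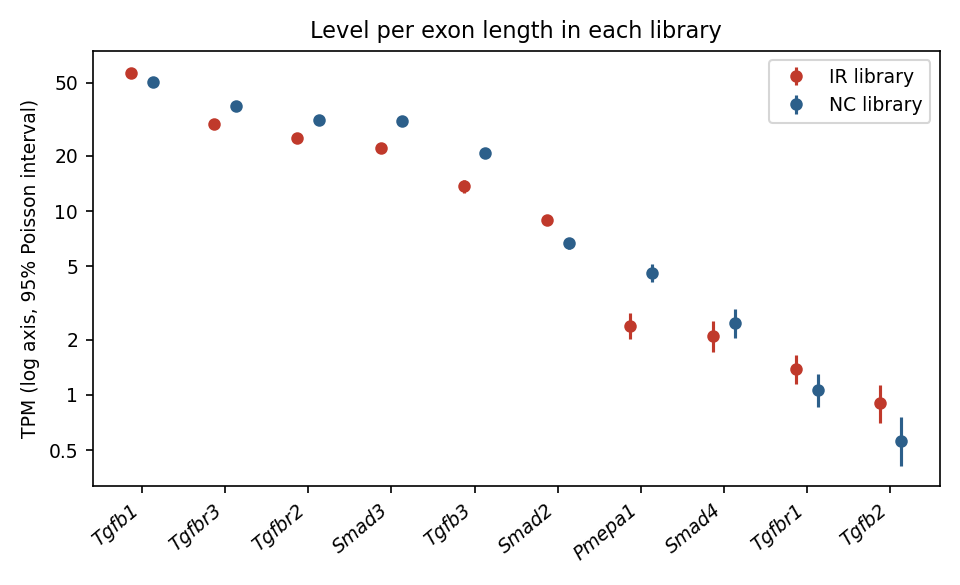
TPM of each TGF-beta gene in the IR and NC libraries on a log axis, ordered by the NC level, with bars for the 95% Poisson interval (hidden by the point where short). Tgfb1 is highest and Tgfb2 lowest in both libraries, and the largest gap between the libraries among the 5 least abundant is that of Pmepa1.

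The receptors split in the same manner. Tgfbr2, the ligand-binding type II kinase, had 2778 IR reads against 3487 in NC (log2 ratio -0.27, interval -0.34 to -0.19). Tgfbr3, the co-receptor betaglycan that presents ligand to Tgfbr2, had 2650 and 3321 reads (log2 ratio -0.26, interval -0.34 to -0.19). The reads of Tgfbr2 and Tgfbr3 kept their balance between libraries (difference of their log2 ratios -0.0023, interval -0.11 to 0.10). In contrast Tgfbr1, the type I kinase that phosphorylates the SMADs, was scarce and slightly higher in IR, with 122 and 94 reads (log2 ratio 0.43, interval 0.04 to 0.84). Its log2 ratio exceeded that of Tgfbr2 by 0.70 (interval 0.30 to 1.11) and that of Tgfbr3 by the same amount (0.70, interval 0.29 to 1.11). The lower bounds are modest because of the few Tgfbr1 reads.

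In level, Tgfbr3 stood at 29.8 TPM in IR and 37.5 TPM in NC, Tgfbr2 at 25.0 and 31.5 TPM, and Tgfbr1 at 1.37 TPM (interval 1.14 to 1.64) and 1.06 TPM (0.860 to 1.30). The type I receptor thus made up 2.45% of the receptor TPM in IR and 1.52% in NC. The level of Tgfbr2 was 18.2 times that of Tgfbr1 in IR and 29.6 times in NC, or 12.0 and 19.5 times with the mean length of coding transcripts. The genes lie at chr4:47353222-47414931 (Tgfbr1, plus strand), chr9:116084293-116175360 (Tgfbr2, minus strand) and chr5:107106570-107289629 (Tgfbr3, minus strand, 4.54% of its exon sequence within the same-strand gene model Gm43422).

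The receptor-activated SMADs diverged from each other. Smad2 had 1066 reads in IR and 792 in NC and was higher in IR (log2 ratio 0.49, interval 0.36 to 0.63). Smad3, which unlike full-length SMAD2 binds DNA directly, had 1670 and 2312 reads and was lower in IR (log2 ratio -0.41, interval -0.50 to -0.32). Smad2 had a higher ratio than 91.1% of all genes compared, and Smad3 a higher ratio than only 14.0%. The difference between these ratios was 0.90 (interval 0.73 to 1.06), and it does not depend on scaling or length. Per exon length Smad3 was 2.48 times as abundant as Smad2 in IR and 4.63 times in NC, or 2.08 and 3.88 times with the mean length of coding transcripts. Smad3 remained the main SMAD transcript of the trio in both libraries.

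Smad4, the partner shared by TGF-beta and bone morphogenetic protein signalling, had 105 and 123 reads (log2 ratio -0.16, interval -0.56 to 0.22). A difference in Smad4 was not detectable at this depth, and the interval still allows a log2 ratio as low as -0.56. It stood at 2.08 TPM in IR (1.70 to 2.52) and 2.45 TPM in NC (2.04 to 2.92), against 22.2 and 30.9 TPM for Smad3 and 8.94 and 6.67 TPM for Smad2. Smad4 gave 6.27% of the SMAD TPM in IR and 6.13% in NC, while the share of Smad2 was 26.9% in IR and 16.7% in NC. With the mean length of coding transcripts the Smad4 share was 2.48% and 2.47%. Smad2 and Smad4 both lie on chromosome 18 (76241580 to 76310963 on the plus strand, and 73639009 to 73703780 on the minus strand), and Smad3 at chr9:63646767-63757994 on the minus strand.

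**Figure D4:**
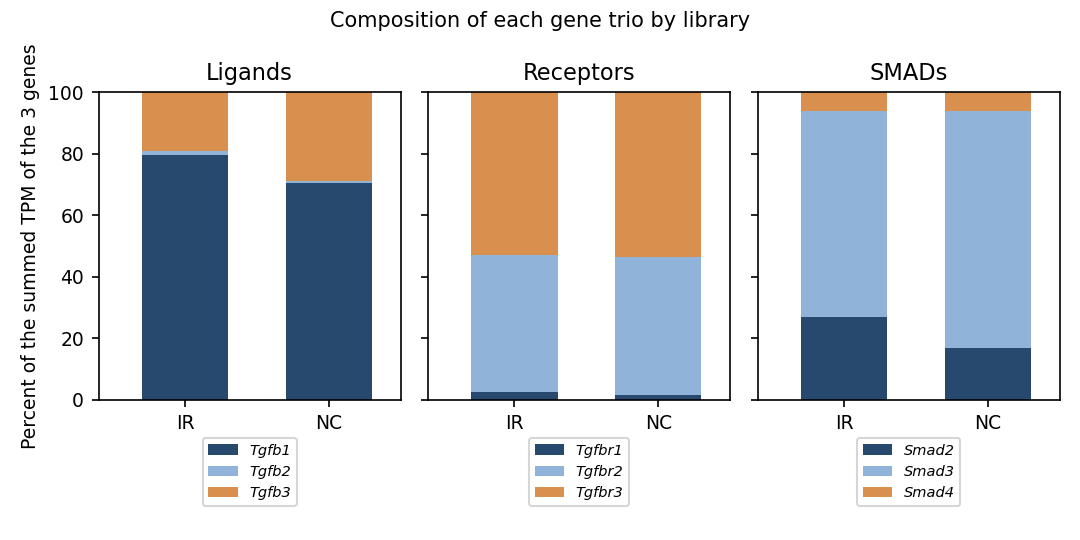
Stacked bars of the percent that each gene contributes to the summed TPM of the ligands, the receptors and the SMADs in the IR and NC libraries. Tgfb1 takes a larger share of the ligands in IR (79.5% against 70.3%) and Smad2 a larger share of the SMADs (26.9% against 16.7%), while Tgfbr2 and Tgfbr3 divide the receptors almost alike in both.

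Smad3 and Tgfbr2 were both lower in IR and both reside on chromosome 9. The 250 bases before their RefSeq start sites are given side by side, with the same motifs in capitals.
Smad3: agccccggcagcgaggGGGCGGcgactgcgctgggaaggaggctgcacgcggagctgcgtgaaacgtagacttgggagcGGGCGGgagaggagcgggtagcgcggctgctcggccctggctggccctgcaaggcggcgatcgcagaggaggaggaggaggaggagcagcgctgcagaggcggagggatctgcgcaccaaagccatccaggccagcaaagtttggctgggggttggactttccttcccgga
Tgfbr2: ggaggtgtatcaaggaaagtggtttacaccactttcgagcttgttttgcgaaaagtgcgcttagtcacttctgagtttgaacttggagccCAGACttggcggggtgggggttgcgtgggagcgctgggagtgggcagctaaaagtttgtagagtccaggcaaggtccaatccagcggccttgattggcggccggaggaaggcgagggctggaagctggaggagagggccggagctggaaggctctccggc
The Smad3 stretch (chr9:63757995-63758244, minus strand) was 69.2% G and C and held 2 GC boxes. The Tgfbr2 stretch (chr9:116175364-116175613, minus strand) was 58.4% G and C and held a single SMAD box 156 to 160 bases before the start, with no GC box. Of the 4 start sites shown, only that of Tgfbr2 had first 30 transcribed bases that were not found in a GENCODE transcript. Its stretch reaches down to chr9:116175364 and the gene model used for the levels ends at 116175360, so the starts lie a few bases apart. Neither the Smad3 nor the Tgfbr2 stretch held a TATA box, an AP-1 site or a cAMP response element in these letters.

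Pmepa1, a membrane protein that TGF-beta itself induces and that sequesters SMAD2 and SMAD3 from the activated receptor, showed the largest difference of the 10 genes. It had 159 reads in IR and 306 in NC, a level 1.83-fold higher in NC (log2 ratio -0.87, interval -1.17 to -0.60). Only 2.56% of all genes compared had a lower ratio. It stood at 2.38 TPM in IR (2.03 to 2.78) and 4.61 TPM in NC (4.10 to 5.15). Its log2 ratio minus that of Smad3, a protein it binds, was -0.48 (interval -0.78 to -0.18). The gene lies at chr2:173224458-173276533 on the minus strand and shares no exon sequence with another gene model.

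Comparing 10 pairs of these genes for their balance between libraries, 7 had an interval that left out 0. The exceptions were Tgfb1 with Tgfb2, Tgfbr2 with Tgfbr3, and Smad3 with Smad4. No share was computed for pairs of other genes. Of single genes compared, 63.6% had an interval that left out 0, so the count of pairs singles out little. In the order of TPM, neighbours whose intervals overlapped were Tgfbr2 and Smad3 in NC, and Pmepa1 and Smad4 in IR. The choice of length mattered more than these intervals. With the mean length of coding transcripts Smad3 moved from rank 4 to rank 2 in both libraries (37.2 TPM in IR and 51.7 TPM in NC), but Tgfb1 stayed first and Tgfb2 last in each library with all 3 lengths tried.

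The rest of the pathway was read from 7 lists of 104 genes, of which 96 were in the table and 85 had enough reads. In these, 4 genes were at least 2-fold higher in IR (Acvrl1, Acvr2b, Ctgf and Tagln) and 3 at least 2-fold lower (Ltbp4, Zfyve9 and Col1a1). The interval lay above 0 for 27 genes, below 0 for 33, and included 0 for 25. Counts of this kind stand beside 3.42% of all genes compared at 2-fold and 63.6% by the interval, and the lists were assembled with earlier results known. The median was -0.02, against -0.0069 for all genes compared, and it ran from -0.05 to 0.0021 over the scalings and centrings tried.

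Genes that store and release latent TGF-beta were led by the latent TGF-beta binding proteins, which anchor the ligand complex to the matrix. Ltbp4 had 4259 IR reads against 9873 in NC (log2 ratio -1.15, interval -1.20 to -1.10), a 2.22-fold higher level in NC. Ltbp3 followed with 10084 and 16616 reads (log2 ratio -0.66), whereas Ltbp1, with 4002 and 4247 reads, did not differ beyond counting error (-0.02, interval -0.09 to 0.04). At the other end stood Fbn1 (fibrillin-1, log2 ratio 0.78 from 144 and 87 reads), which overlaps Gm9913 over 20.1% of its exon sequence, and Lrrc32 (a cell-surface anchor of latent TGF-beta, 0.56 from 80 and 56 reads). Of the 12 genes with enough reads, 3 had an interval above 0 and 6 below.

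The list of other SMAD2/3 ligands and receptors held 2 receptor genes at least 2-fold higher in IR, both with few reads. Its genes do not all act through SMAD2 and SMAD3, and Acvrl1 is an exception. Acvr2b, an activin type II receptor, had 105 IR reads against 48 in NC (log2 ratio 1.16, interval 0.69 to 1.72). Acvrl1 (ALK1, the type I receptor best known from endothelium) had 64 and 29 reads (1.15, interval 0.55 to 1.89), while the endothelial markers, 5 of 6 of them in the table, reached 4.70 and 4.36 CPM and the defining Pecam1 had 1 and 0 reads. Among these markers Kdr, a receptor for vascular endothelial growth factor, was also at least 2-fold higher in IR, with 47 and 19 reads (1.28, interval 0.57 to 2.22). Vwf had 70 and 99 reads and Cdh5 45 and 41, both with intervals that include 0. The part of endothelial RNA in the Acvrl1 value was not tested. The activin type I receptor gene Acvr1b was better covered and lower in IR, with 1395 and 2048 reads (-0.49, interval -0.59 to -0.39), as was the activin subunit Inhbb (-0.53 from 135 and 205 reads). Of 9 genes with enough reads, 3 were higher and 4 lower by the interval.

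Extracellular antagonists showed no member 2-fold different, and 4 of 6 had an interval below 0 and none above. With upper quartile scaling 3 lay below and 2 above, and with trend centring 4 below and 2 above. The serine proteases Htra3 (29 and 51 reads, log2 ratio -0.71) and Htra1 (488 and 796 reads, -0.64) were lowest. The activin-binding proteins Fstl3 (0.14) and Fst (0.10) were highest, both with intervals that include 0. Fstl3 overlaps Prss57 over 47.3% of its exon sequence.

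Among intracellular inhibitors, 3 of 12 were higher and 6 lower by the interval, none of them 2-fold. The SMAD co-repressor Ski had 2607 IR reads against 3789 in NC (log2 ratio -0.48, interval -0.55 to -0.40). The inhibitory Smad6 had 243 and 344 reads (-0.44, interval -0.68 to -0.20). Highest were the homeobox co-repressor Tgif2 (0.50) and Ldlrad4 (0.48), a relative of Pmepa1 that likewise binds SMAD2 and SMAD3. Their exons overlap other genes over 61.6% and 52.1%, so both values are uncertain. Smad7, the inhibitory SMAD that TGF-beta induces as does Pmepa1, had 193 and 220 reads and an interval that includes 0 (-0.13, interval -0.41 to 0.16). A difference in Smad7 was not detectable at this depth.

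SMAD adaptors and partners pointed both ways, with 5 of 13 higher and 3 lower by the interval. Zfyve9 (SARA), the endosomal anchor that brings SMAD2 and SMAD3 to the receptor and for whose binding Pmepa1 competes, had 93 IR reads against 198 in NC (log2 ratio -1.01, interval -1.40 to -0.67). It overlaps 3110021N24Rik over 10.9% of its exon sequence, and with upper quartile scaling its ratio was -0.99, just short of 2-fold. The related FYVE-domain gene Zfyve16 (0.88, 81 and 45 reads) and the deubiquitinase Usp15 (0.92, 305 and 167 reads) were highest. The co-activator acetyltransferase Ep300 (-0.38) was second lowest.

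In the branch that bypasses SMADs, 4 of 15 genes were higher and 5 lower by the interval, and none 2-fold. Mapk8 (JNK1, -0.80 from 41 and 76 reads) and Map3k7 (TAK1, the kinase that links the receptor to JNK and p38, -0.39 from 450 and 615 reads) were lowest. Tab3, a subunit of the TAK1 complex (0.46, 101 and 76 reads), and Map2k3 (0.43, 5311 and 4123 reads) were highest.

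Known target genes of TGF-beta lay on both sides: of 21 with enough reads, 9 were higher and 6 lower by the interval, with a median of 0.15. Ctgf (1.64) and Tagln (1.34) were highest, both with exons that overlap other genes (23.2% and 67.9%), and Col1a1 (-1.27) and Fn1 (-0.80) lowest. The SMAD co-repressor Skil, picked with its value known, had 126 and 118 reads and an interval that includes 0 (0.15, interval -0.22 to 0.53).

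**Figure D5:**
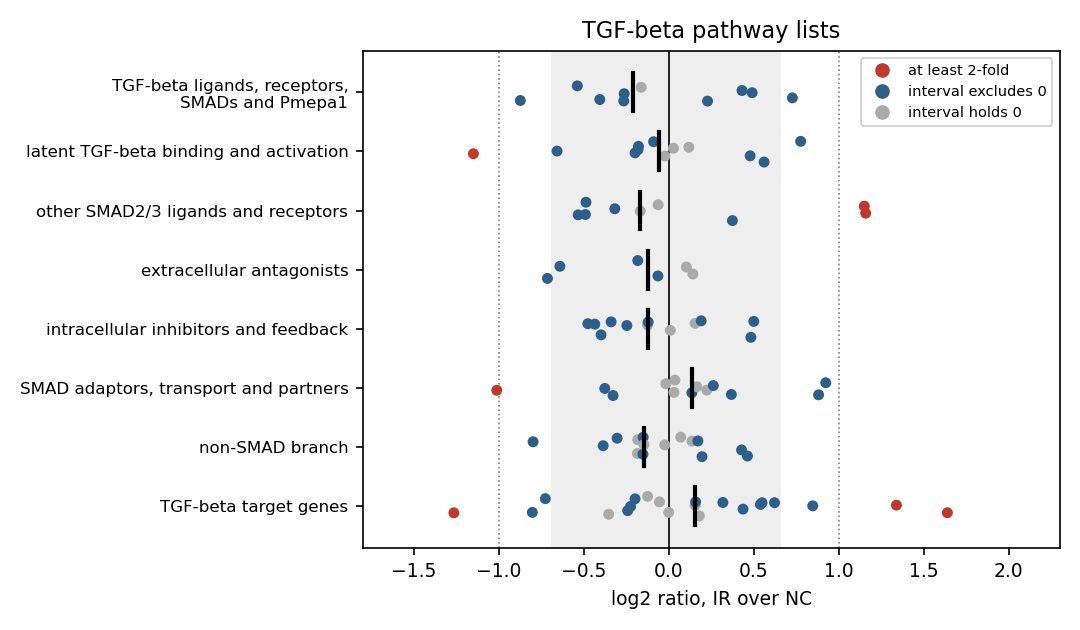
Log2 ratio of IR over NC for the TGF-beta genes and 7 lists of pathway genes with 50 or more reads. Vertical bars mark medians, colours mark 2-fold and counting-interval calls, and the grey band spans the middle 90% of all genes compared (-0.69 to 0.65). Each list holds genes on both sides of 0, and 7 list genes lie beyond 2-fold.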

How the data were processed

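RNA of 2 libraries (IR and NC, 1 each) was compared. Values in the deposited table are raw counts of reads for each gene, per the file headers. Per the submitters' processing notes, the build was mm10 and the tools included HISAT2, HTSeq 0.9.1, cutadapt 1.9.3 and edgeR, and the annotation release and strand setting are not given in the sources used here. A further 2 value columns were not used. Gene models came from GENCODE vM21 (GRCm38, the assembly named mm10), which held 14584 of 14694 identifiers (99.3%). Promoter sequences are RefSeq's on GRCm38.p6, matched by symbol, and 5 of the 10 genes had an entry outside chromosome 18.

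Library sizes were multiplied by TMM factors (0.991 for IR, 1.01 for NC) from edgeR 4.0.16 under R 4.3.3. Log2 ratios used log2 CPM with a prior count of 2, for genes with at least 50 reads over both libraries. Ratio intervals are exact (Clopper-Pearson, 95%), from the split of a gene's reads, and balances between 2 genes have exact conditional intervals of the odds ratio (scipy 1.17.1). TPM used merged exon lengths, with exact Poisson intervals. All intervals cover counting error only, and PCR copies are not independent molecules. With 1 library per group no p-value was computed. A likeness of pattern over 2 libraries is the ratio alone, so no gene is named for one. Genes named are the 10 members and, from each pathway list, those at least 2-fold different and up to 2 highest and 2 lowest. Ltbp1, Smad7 and Skil were added with their values known, as were Id3 and Myc among the other observations. Marker genes of cell types are named as well. Simulated data were used to check the procedure, and other scalings, prior counts, filters, fold rules and lengths were tried. The members and lists were chosen with earlier results of these data known.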

Additional observations from a re-analysis of the deposited data

How the results depend on the processing

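For the TGF-beta genes, all 89 log2 ratios recomputed under other scalings (total counts, DESeq2 1.42.0 size factors, upper quartile, totals leaving out mitochondrial genes and the top 20), prior counts of 0.5 and 5, no filter, a filter of 200 reads and centring on the trend over expression kept their sign and stayed inside the main counting interval. Those other scalings shifted no member by more than 0.03 and move all genes nearly alike, so the ratios could hardly leave their intervals. A filter does not enter a ratio, so no filter and the filter of 200 reads repeat the main values. TPM values carry a scaling of their own, so ratios of the printed TPM differ somewhat from the log2 ratios. The count of members at least 2-fold different stayed at 0 under the settings listed above. It rose to 2 with a 1.5-fold rule (Tgfb2 and Pmepa1) and to 9 with the interval alone, by the construction of those rules. Over the table, the 374 genes at least 2-fold different became 1419 and 6945 under those 2 rules, 1190 with no filter and 144 with a filter of 200 reads, which tests fewer genes. The members' median of -0.21 became -0.064 as a mean. The filter of 200 reads leaves out Tgfb2, Acvr2b and Acvrl1. Zfyve9 fell short of 2-fold with upper quartile scaling, a prior count of 5 and trend centring (-0.99 in each). Few reads limit Tgfb2, Tgfbr1, Smad4 and Pmepa1. No paired analysis was possible because each group has 1 library.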

Other observations

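The deposited table annotates 74 of its genes with the TGF-beta signaling pathway, which here also covers bone morphogenetic protein signalling and 8 of the 10 TGF-beta genes. Of the other 66, 51 had at least 50 reads, 16 with an interval above 0 and 15 below. Their median log2 ratio was -0.0006, between -0.03 and 0.03 over the scalings and centrings tried. Of all genes compared, 31.2% had an interval above 0 and 32.4% below, and 3.42% were at least 2-fold different, so these counts single out little. In the annotated set, inspected after the values were seen, Id3 (a bone morphogenetic protein target, 6661 IR reads against 3121 in NC, a log2 ratio of 1.16) and Acvr2b were at least 2-fold higher and Zfyve9 at least 2-fold lower. Myc had 25788 and 15511 reads (0.80, interval 0.77 to 0.82).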
